A study of Homo sapiens with 3 samples.

Results

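The regions described are 826 strong XPB peaks that had no XPD peak over them in HT1080, a long-established line of human fibrosarcoma cells. The members were selected on deposited values of both lists: a peak was a member when its score in the XPB list was at least 300 and its interval shared not even 1 bp with an interval of the XPD list. The score is the one deposited with each peak; in the usual layout of the peak caller it is -10 times the log10 of a p-value, and both lists start at 150. The members were 826 of 3081 XPB peaks with such scores (26.8%, exact 95% interval 25.3 to 28.4) and 826 of 21555 XPB peaks in all. Over XPB peaks of every score, 15828 (73.4%) had no overlapping XPD peak, so strong peaks lacked a partner less often than the list as a whole. Both the score and the overlap chose the members, and these counts are a description. The number depends on the rule: 1430 strong XPB peaks had no XPD summit within 250 bp of theirs, and 177 members scored at least 400.

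The series comprised 3 samples, each of HT1080 cells for which no treatment is named: 1 XPB ChIP with a rabbit polyclonal antibody, 1 XPD ChIP with another rabbit polyclonal antibody, and 1 input library without enrichment. All were prepared from the same batch of fixed chromatin. There was 1 library for each antibody and no replicate of either. The protocol text common to the samples names an antibody against CSB, a different protein; the antibody given for each sample was followed. Neither read depth nor an input peak list was used here. Absence from the XPD list therefore means that no XPD peak was listed with a score of at least 150, and not that XPD was absent.

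XPB and XPD are the DNA helicases of TFIIH, a complex that acts both in transcription and in nucleotide excision repair. XPB is an ATP-driven translocase that opens promoter DNA for RNA polymerase II. XPD unwinds DNA around a lesion during repair, and its helicase activity is dispensable for promoter opening, where it has a structural role and bridges the core of TFIIH to the kinase module. Because both belong to the same core complex, sites with a strong peak of one and none of the other were examined for position, shape and surroundings. Positions are 1-based hg19 coordinates. Genes at these positions were not analysed here.

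The members took up the lower part of the range of strong scores. Their scores ran from 300.1 to 764.5, with a median of 346.3 (interquartile range 319.3 to 393.8). By score they ranked between 244 and 3078 in the XPB list, and each of the 243 XPB peaks that scored above the best member overlapped an XPD peak. Strong overlapping peaks within the members' score range, 2012 in number, served for comparison. Their median score was 397.2 (342.9 to 494.1).

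The share of XPB peaks without XPD fell steadily with the score. At scores of 300 up to 325 the members were 255 of 551 peaks (46.3%, 42.1 to 50.5), and at 325 up to 350 they were 180 of 447 (40.3%, 35.7 to 44.98). The share was 31.5% (28.0 to 35.1) at 350 up to 400 and 20.9% (17.8 to 24.2) at 400 up to 500. From 500 to the highest member it was 44 of 522 (8.43%, 6.19 to 11.2). Here and below, such intervals hold for counting error alone, and PCR copies are not independent molecules. The XPD peaks that lay over the comparison peaks followed the same order: their median XPD score was 218.9 in the lowest of these ranges, 239.3, 250.8 and 280.0 in the next ones, and 376.7 in the highest. In the lowest range 41.9% of these XPD partners scored under 200, and in the highest 10.04% did. Across all 2012 comparison peaks, 494 (24.6%) had an XPD partner with a score under 200.

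**Figure D1:**
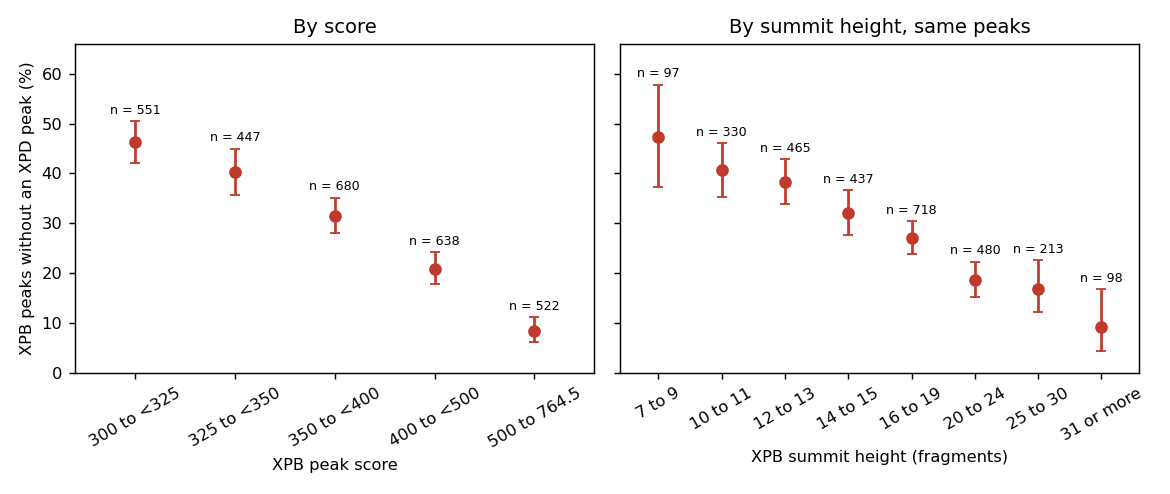
Share of XPB peaks without an overlapping XPD peak, in percent, by XPB score (left) and by XPB summit height in fragments (right), for the 826 members and the 2012 overlapping peaks of the same score range. Points are shares, bars are exact 95% intervals for counting error, and the number of peaks stands above each bar; the share falls to 8.43% at the highest scores and to 9.18% at the tallest summits.

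The threshold at 300 cut through a gradual change. Of the XPB peaks scoring 280 up to 300, 327 of 605 (54.1%) had no XPD peak, and of those scoring 300 up to 320, 213 of 451 (47.2%) had none. The members just inside lay at chr14:106167876-106168996 (score 300.14, summit of 13 fragments), chr4:75023325-75023864 (300.14, 23 fragments) and chr3:160116761-160118297 (300.15, 15 fragments). The peaks without XPD just outside lay at chr12:510302-511256 (299.98, 12 fragments), chr3:197215935-197218499 (299.85, 17 fragments) and chr16:3591486-3592486 (299.67, 10 fragments). They did not stand apart from one another in height.

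The members had lower summits than overlapping peaks of the same score range, and their widths differed in no settled direction. Summit height is the number of overlapping fragments at the peak's highest point, not scaled to depth. The members' median height was 14 fragments (interquartile range 12 to 18), and that of the overlapping peaks was 17 (13 to 21). The exact 95% intervals of the medians were 14 to 15 for members and 16 to 17 for overlapping peaks. They hold for counting error over peaks of 1 library, which are not replicates. Part of the gap between the medians went with the score. Within the 5 score ranges the members' median was 13, 14, 15, 15 and 17 fragments. That of overlapping peaks was 14, 15, 16, 17 and 21. Averaged over these ranges, each weighted by its number of members, the difference of medians was -1.32 fragments. Median width was 1156.5 bp in members (892.3 to 1454.5) and 1170 bp in overlapping peaks (880.8 to 1483), a difference inside the interval of the members' median (1114 to 1200). Averaged over the score ranges in the same way, the members were the wider, by 45.7 bp. XPB peaks without XPD that scored under 300 were smaller, with a median height of 11 fragments and a median width of 784 bp.

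Within the members' score range, height ordered the strong peaks much as the score did. The shares by height and width are over the 2838 strong peaks of that range, of which 29.1% were members. They leave out the 243 peaks of higher score, each of which overlapped an XPD peak. Of the peaks in that range with summits of 7 to 9 fragments, 46 of 97 (47.4%, 37.2 to 57.8) had no XPD peak. The share was 32.0% (27.7 to 36.6) at 14 to 15 fragments, 18.5% (15.2 to 22.3) at 20 to 24 and 9 of 98 (9.18%, 4.29 to 16.7) at 31 or more. Width alone showed no such order. The share without XPD was 38.2% (25.4 to 52.3) under 500 bp, 31.2% (26.4 to 36.3) from 500 up to 750 bp and 24.96% (21.6 to 28.6) at 750 to 999 bp. It was 31.2% (27.6 to 34.9) at 1000 to 1249 bp and 23.2% (17.0 to 30.4) at 2000 bp or more. Among peaks of like height, however, the share fell with width. Under 14 fragments it was 44.1% (31.2 to 57.6) under 900 bp and 37.2% (32.7 to 41.8) at 1400 bp or more. From 14 up to 20 fragments it was 33.98% (28.7 to 39.6) and 23.9% (19.1 to 29.2). Both pairs of intervals overlapped. Peaks that were both tall and wide were seldom members. With at least 20 fragments and at least 1400 bp, 4 of 116 peaks of that score range (3.45%, 0.947 to 8.59) had no XPD peak. With at least 20 fragments and under 900 bp, 81 of 378 (21.4%, 17.4 to 25.9) had none. A wider interval also meets an XPD interval more readily, which the rule on overlap builds in.

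Among the members, tall peaks were narrow and wide peaks were low. Spearman's rho between height and width was -0.55 across the 826 members and -0.44 across the 2012 overlapping peaks; the peaks of each set come from 1 library, and both sets were cut at the same score. Of the 11 members with summits of at least 30 fragments, 10 were narrower than 1000 bp, and their median width was 612 bp. The 38 members of at least 2000 bp had a median height of 11.5 fragments, and none exceeded 18.

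**Figure D2:**
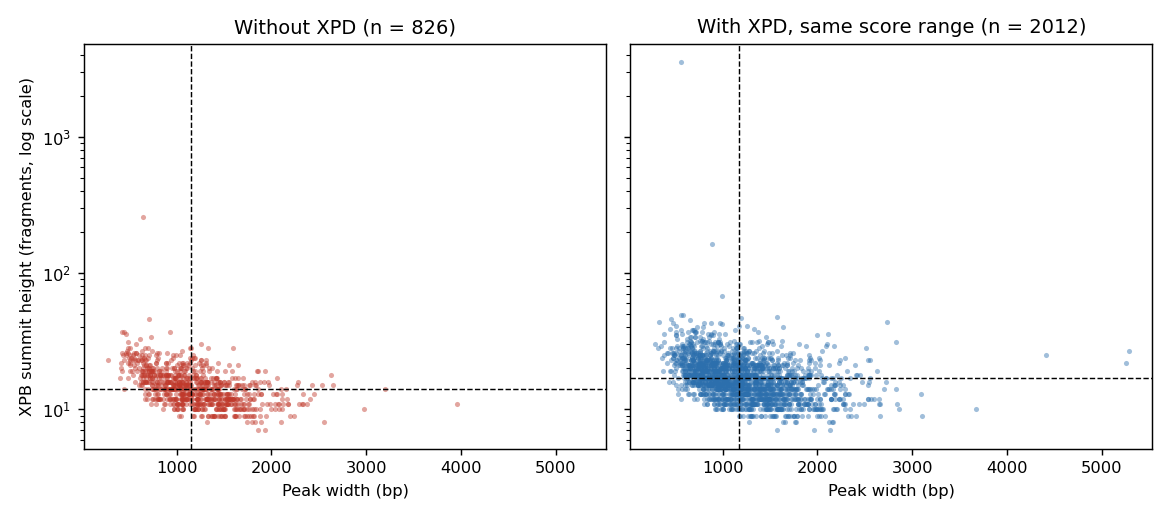
Summit height in fragments (log scale) against peak width in bp for the 826 strong XPB peaks without XPD (left) and the 2012 with XPD in the same score range (right). Each point is a peak, and dashed lines mark the medians: 14 fragments and 1156.5 bp on the left, 17 fragments and 1170 bp on the right.

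The highest score among the members belonged to a peak with few neighbours, at chr14:89017530-89018460. It scored 764.5 with a summit of 37 fragments over 931 bp. The nearest XPD summit lay 54007 bp away, and that XPD peak scored 253.9. The next XPB summit lay 41626 bp away with 10 fragments. The nearest other member lay 586047 bp away.

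The remaining high scorers were of different shapes. A wide, low peak at chr7:62404-66361 scored 702.9 with 11 fragments over 3958 bp, the widest of the members, and its nearest XPD summit was 20253 bp away. The peak at chr17:37308564-37311197 scored 699.5 with 18 fragments over 2634 bp, and another on that chromosome, at chr17:69971247-69972746, scored 690.4 with 16 fragments over 1500 bp with the nearest XPD summit 144872 bp away. These wide peaks reached their scores without tall summits. Narrow peaks with high scores lay at chr7:73693742-73694378 (622.8, 24 fragments over 637 bp) and at chr7:127983535-127984205 (617.0, 28 fragments over 671 bp); the second of them was 226033 bp from an XPD summit. The others among the 10 highest were at chr1:201430009-201431784 (623.5, 15 fragments), chr7:55200498-55201834 (603.2, 20 fragments) and chr16:29835589-29837689 (599.2, 14 fragments).

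One high scorer was the neighbour of a very strong shared site. The member at chr17:18965258-18965701 scored 647.2 with 37 fragments over 444 bp. At 1564 bp from its summit lay an XPB peak at the score ceiling of 3100, with 181 fragments, and the nearest XPD peak, which did not reach the member, scored 1633.1 with 98 fragments. The gap between the member's edge and that XPD interval was 1120 bp.

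A single member stood far above the rest in height. At chr12:20704266-20704913, 259 fragments were piled up over 648 bp, while the second tallest member reached 46. Its score of 431.6 gave it only rank 1116 among XPB peaks. It was also among the most remote: the nearest XPD summit was 1038486 bp away, and the only other XPB peak within 500 kb lay 415986 bp off with 9 fragments. The second tallest, at chr15:41694382-41695087, scored 590.8, and low XPD summits of 10 fragments lay on either side of it, the nearer 3474 bp away. A further summit of 37 fragments stood at chr1:237766339-237766759 (score 395.0, 421 bp wide), 808154 bp from the nearest XPD summit.

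At the other end were wide peaks with almost no summit. The lowest members had 7 fragments, at chr5:133376710-133378563 and at chr3:126758433-126760363, over 1854 and 1931 bp. Those with 8 fragments included peaks at chr12:124994051-124995849, chr3:47324604-47326703 and chr17:16348529-16351079. Their scores lay between 317.1 and 386.7. The widest members after the one on chromosome 7 were at chr5:281376-284576 (3201 bp, 14 fragments) and chr5:10454696-10457676 (2981 bp, 10 fragments), and at chr17:17348352-17350999 (2648 bp, 15 fragments).

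XPD peaks were not far from most members. The median distance from a member's summit to the nearest XPD summit was 15952.5 bp (interquartile range 5438 to 51664.8; exact 95% interval of the median 14513 to 18687). Overlapping peaks of the same score range had a median of 72 bp (20 to 297), which the rule on overlap imposes. XPB peaks without XPD that scored under 300 had 26476 bp (8446.8 to 77943.8), so the strong members lay nearer to XPD summits than the weaker ones. An XPD summit was found within 5 kb of 194 members (23.5%, 20.6 to 26.5), within 10 kb of 314 (38.0%, 34.7 to 41.4) and within 100 kb of 717 (86.8%). The boundary between the members and the overlapping peaks of the same score range was narrow. With an XPD summit 1000 to 1999 bp away, 63 were members and 71 overlapped. At 2000 to 4999 bp, 119 were members and 4 overlapped.

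**Figure D3:**
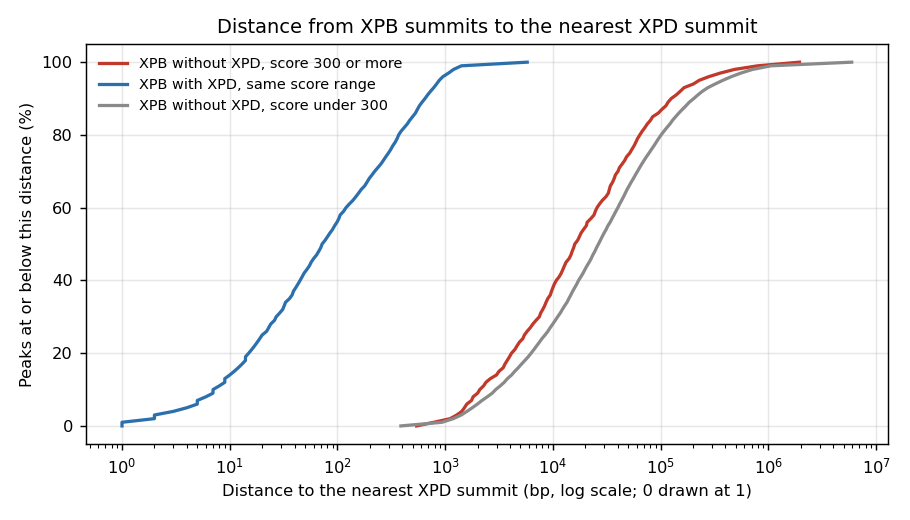
Cumulative share of XPB peaks, in percent, against the distance from their summit to the nearest XPD summit in bp (log scale), for the 826 strong peaks without XPD, the 2012 strong peaks with XPD in the same score range and the 15002 weaker peaks without XPD. The strong peaks without XPD lie left of the weaker ones over most of the range, with medians of 15952.5 and 26476 bp.

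Near misses were a minority of the members. The gap between the member's interval and the closest XPD interval was at most 100 bp in 12 members, at most 500 bp in 45 (5.45%) and at most 1000 bp in 87 (10.5%, 8.52 to 12.8). The smallest gap, 3 bp, was at chr11:8738787-8740843, a peak with a score of 593.7 and 13 fragments beside an XPD peak of 19 fragments, with summits 1283 bp apart. Gaps of 17, 19, 22 and 32 bp followed at chr17:33571177-33572047, chr6:44019218-44020737, chr22:30819498-30820529 and chr20:378758-380739. The least overlaps that kept a strong peak out of the set were 4 bp at chr2:43269048-43269730, 39 bp at chr3:134056102-134058115 and 75 bp at chr12:7070906-7071902, with summits 911, 2177 and 1108 bp from XPD summits.

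Many of these near misses lay beside a shared site. In 51 of the 87 members within 1000 bp of an XPD interval (58.6%, 47.5 to 69.1), that XPD peak overlapped another XPB peak, so that a shared site and an XPB-only peak stood side by side. The share was 39.2% (35.9 to 42.7) over the nearest XPD peaks of all members, and 38.7% of all XPD peaks overlapped an XPB peak. For weaker XPB peaks without XPD that lay within 1000 bp of an XPD interval it was 49.2% (46.0 to 52.5), inside the interval of the members. The clearest case was the member at chr17:33571177-33572047, which had 14 fragments and a score of 313.7. The next XPB summit, 1452 bp away, had 75 fragments and a score of 2151.7, and the XPD peak under that summit had 60 fragments and a score of 1281.1. The member at chr6:26283898-26285095 (19 fragments, 338.2) lay 737 bp from an XPB summit of 31 fragments that had an XPD peak of 33 fragments; it was picked after its values were seen. Fragments of 400 to 700 bp were sequenced, per the labels' protocols, so summits this close are near the limit of what the libraries resolve.

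The members far from any XPD peak were few. No XPD summit lay within 500 kb of 17 members (2.06%, 1.20 to 3.28). The farthest was the 1 member on chromosome X, at chrX:21857433-21857943, with 25 fragments, 1943642 bp from an XPD summit. It was followed by chr13:71418473-71419607 (1936825 bp), chr12:10516324-10517395 (1256472 bp), the tall peak on chromosome 12 described above, and chr2:33823440-33825044 (1034687 bp). Of these 17 members, 7 had no other XPB peak within 500 kb either, and their summits were between 13 and 25 fragments. In overlapping peaks, once the XPD peaks lying over them were set aside, 35 of 2012 (1.74%, 1.22 to 2.41) had no XPD summit within 500 kb.

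The wider surroundings of the members were not poor in XPD peaks. Within 100 kb on either side of a member there were on average 4.32 XPD summits and 6.06 other XPB summits. Around overlapping peaks, with the XPD peaks lying over them left out, the averages were 5.08 and 7.01. The ratio of XPD to XPB neighbours was 0.713 around members and 0.725 around overlapping peaks within 100 kb, and 0.706 and 0.704 within 500 kb. Members without any XPD summit within 100 kb were 109 (13.2%, 11.0 to 15.7), and overlapping peaks with no other XPD summit in that distance were 248 (12.3%, 10.9 to 13.8). Where 10 or more other XPD summits lay within 100 kb, members were 83 of 402 strong peaks of their score range (20.6%, 16.8 to 24.9). Where there was none they were 109 of 357 (30.5%, 25.8 to 35.6). The shares between showed no order: 33.8% with 1 other XPD summit, 29.5% with 2, 31.8% with 3 to 4 and 28.3% with 5 to 9.

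Close XPB neighbours were less common around members. Another XPB summit of any score lay within 10 kb of 377 members (45.6%, 42.2 to 49.1), against 1113 overlapping peaks (55.3%, 53.1 to 57.5). The difference was in place in each of the 5 score ranges, although in that of 400 up to 500 it was small (52.6% and 53.3%). Within 50 kb it was almost gone, at 84.0% and 85.8%. The difference of -9.68 percentage points within 10 kb was -5.57 at scores of at least 400. It was -15.0 when the 87 members within 1000 bp of an XPD interval were moved to the overlapping set. For 51 of these 87 the nearest XPD peak overlapped another XPB peak, so part of that change is built in. The nearest XPB neighbour within 10 kb was itself shared with XPD for 133 of the 377 members (35.3%, 30.5 to 40.3) and for 522 of the 1113 overlapping peaks (46.9%, 43.9 to 49.9). Another strong XPB peak was found within 10 kb of 107 members (13.0%, 10.7 to 15.4) and of 458 overlapping peaks (22.8%, 21.0 to 24.7).

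Most members had no other member close by. With neighbours joined when their summits were at most 50 kb apart, 720 of the 826 stood alone, 100 formed pairs and 6 formed 2 runs of 3. Joined in the same way, 1270 of the 2012 overlapping peaks (63.1%) stood alone and the longest run held 8; that set is larger, and the number alone falls with the size of a set. The median distance to the nearest other member was 456504 bp. Where the nearest strong XPB peak lay within 50 kb, it was a member for 81 of 287 members (28.2%, 23.1 to 33.8) and for 179 of 899 overlapping peaks (19.9%, 17.4 to 22.7). At any distance the shares were 29.8% (26.7 to 33.0) and 25.1% (23.3 to 27.1). Members were 26.8% of all 3081 strong XPB peaks, the set from which the nearest was taken. Within 10 kb the shares were 15.9% (9.54 to 24.2) and 16.4% (13.1 to 20.1), and pairs enter such counts from both sides.

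The runs of 3 differed in their surroundings. On chromosome 11, members at chr11:62315053-62316590, chr11:62320479-62321473 and chr11:62323256-62325118 had 11, 12 and 19 fragments and scores of 311.5, 355.1 and 372.5. Their nearest XPD summits were 3747, 9107 and 12253 bp away. Shared XPB peaks lay on both sides of this run. On chromosome 12, members at chr12:113683577-113685288 and chr12:113687134-113688940 (11 and 9 fragments) lay 4586 and 9101 bp from a shared site on one side with an XPB summit of 15 fragments and an XPD summit of 18, and the third, at chr12:113736944-113738158 (12 fragments), lay 19513 bp from the nearest XPD summit.

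**Figure D4:**
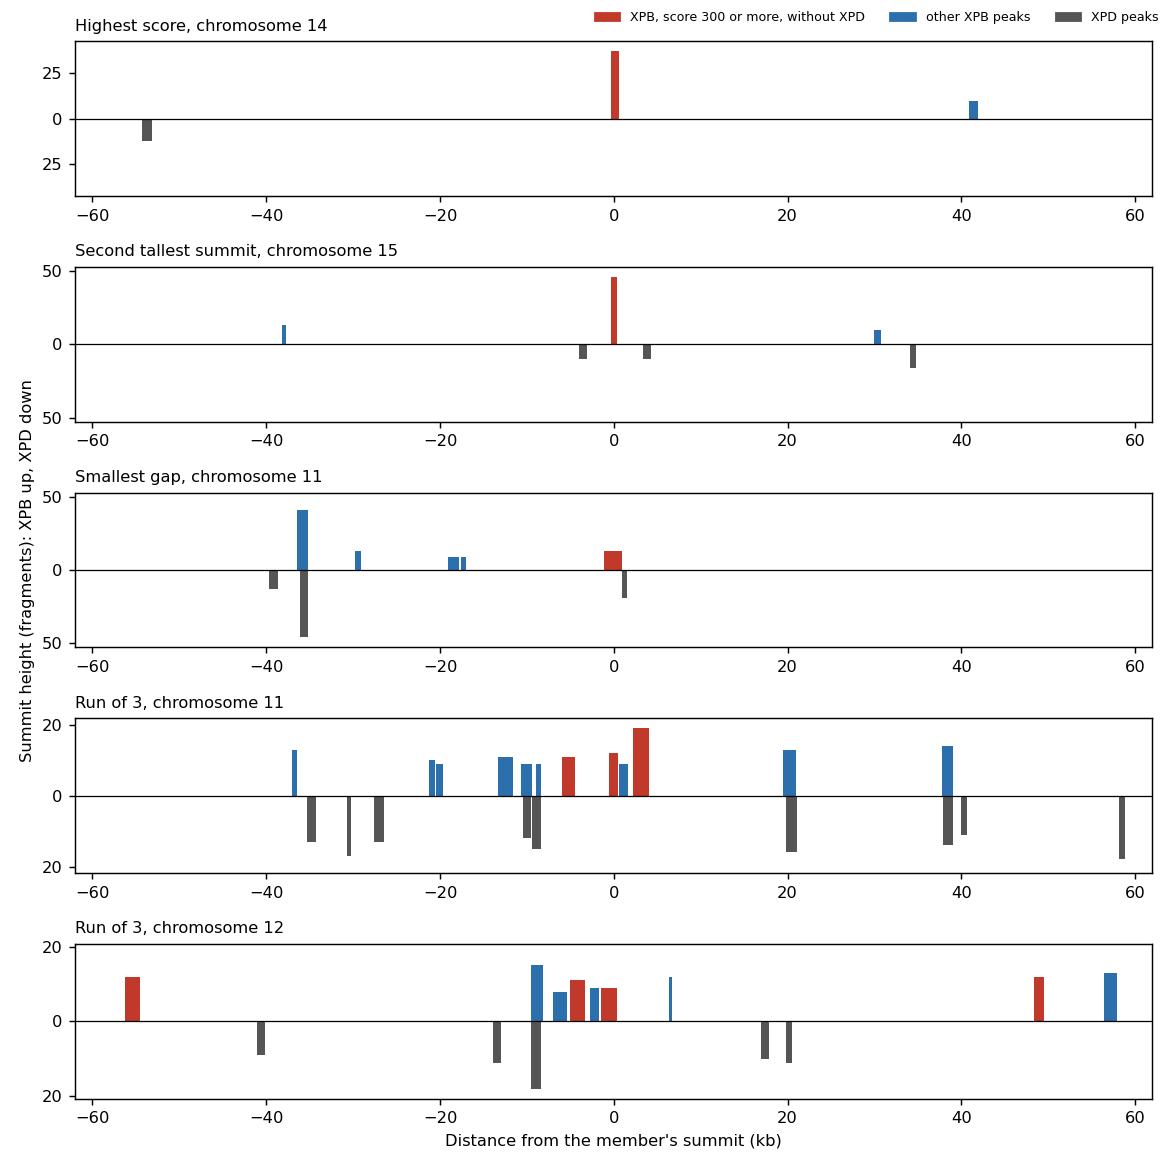
XPB peaks (upward) and XPD peaks (downward) around 5 members, drawn to scale against the distance from the member's summit in kb; bar height is the summit height in fragments and bar width is the peak's width. The member with the highest score stands alone, the one with the smallest gap is 3 bp from an XPD peak of 19 fragments, and shared sites lie on both sides of the run of 3 on chromosome 11 but on a single side of the run on chromosome 12.

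The members were spread over every chromosome except Y, which had no strong XPB peak. Chromosome 1 held 97, chromosome 3 held 93 and chromosome 5 held 61, and chromosome X held 1 of its 10 strong peaks. Per Mb between the first and last XPB peak, autosomes held from 0.0900 members on chromosome 18 to 0.860 on chromosome 22, and from 0.230 to 2.27 strong overlapping peaks. Across the 22 autosomes the numbers of members and of overlapping peaks of the same score range followed each other, with a Spearman's rho of 0.88 that reflects chromosome length and peak density as well.

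As a share of the strong XPB peaks of a chromosome, members varied from 14.9% to 40.5% over the autosomes, with a median of 26.3%. The lowest share was on chromosome 9, with 13 of 87 (14.9%, 8.20 to 24.2). Chromosome 13 had the highest, 15 of 37 (40.5%, 24.8 to 57.9), with an interval that includes the share elsewhere. On chromosome 15 members were 34 of 92 (36.96%, 27.1 to 47.7) and on chromosome 5 they were 61 of 172 (35.5%, 28.3 to 43.1). Chromosomes 5, 9 and 15 were the 3 of 22 autosomes whose interval left out the share on all other chromosomes, and these intervals were not adjusted for looking at 22 chromosomes. Chromosome 5 kept this in each of the 4 settings tried. Chromosome 9 lost it at scores of at least 250 (35.0%, 28.0 to 42.5) and of at least 400 (5.00%, 0.611 to 16.9). Chromosome 15 lost it when peaks within 1000 bp of an XPD interval were not counted as members (31.5%, 22.2 to 42.0). In that setting chromosome 13 gained it (40.5%, 24.8 to 57.9, against 23.8% elsewhere). Chromosome 22 gained it at scores of at least 400 (25%, 12.7 to 41.2, against 12.25% elsewhere). On chromosome 3, whose peaks are dense, the share was 26.2% (21.7 to 31.1), close to that of the list.

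**Figure D5:**
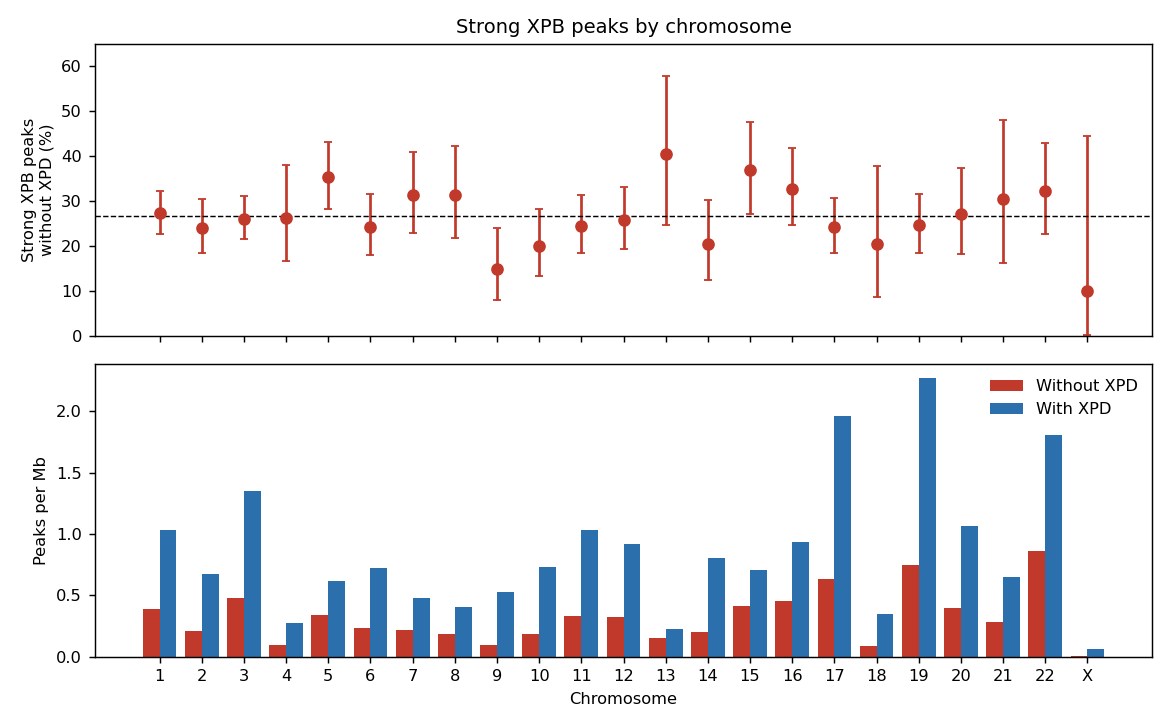
Share of strong XPB peaks without XPD in percent (top; points with exact 95% intervals, dashed line at 26.8% for all chromosomes) and strong peaks per Mb without and with XPD (bottom), by chromosome. Chromosome 9 lies lowest among the autosomes at 14.9% and chromosome 13 highest at 40.5%, and peaks with XPD outnumber those without on each chromosome.

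Windows of 1 Mb differed in how many members they held. Members fell in 568 such windows, of which 395 held a single one and 17 held 4 or more. These 17 held 21 to 95 XPB peaks each. Members are XPB peaks themselves, so the choice of these windows builds in part of that count, and other windows were not compared. The window with the most members was at chr3:126000001-127000000, with 10 among 18 strong XPB peaks (55.6%). The share was 26.8% over all strong XPB peaks, and picking the window by its members builds in part of the difference. This window held 84 XPB peaks and 71 XPD peaks in all. The summits of its members are given next. These 10 members had summits between 7 and 28 fragments, and 8 of the 10 had an XPD summit within 10 kb. The next were at chr3:128000001-129000000 and at chr5:131000001-132000000, with 6 members each, among 17 and 9 strong peaks. At chr5:1000001-2000000 there were 5 among 14. In the window at chr5:131000001-132000000, the members had 9 to 17 fragments, and their distances to an XPD summit were between 4041 and 40766 bp. In 191 of the 568 windows, with 221 members, no strong shared peak was present. Strong XPB peaks of either kind fell in 1148 windows. Those outside the 568 held strong shared peaks without a member, so absence of 1 kind from a window went both ways. Near the chromosome starts, 11 members (1.33%, 0.667 to 2.37) and 18 overlapping peaks (0.895%, 0.531 to 1.41) lay in the first 1 Mb.

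The XPD list held fewer such peaks. Of 1730 XPD peaks with scores of at least 300, 223 (12.9%, 11.4 to 14.6) had no overlapping XPB peak, but the XPB list is the longer one and offers more partners, so the shares are not like for like. Their median width was 1443 bp, their median height 14 fragments and their highest score 573.0. A member lay within 100 kb of 63 of them (28.3%). The same share was not computed for the other strong XPD peaks. A member also lay within 100 kb of 22.7% of the overlapping XPB peaks in the members' score range. Another member lay that close to 21.55% of the members themselves.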

How the data were processed

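Per the submitters' processing notes, Bowtie 0.12.7, MACS 1.4 and the hg19 build were used; the control and other caller settings are not given in the sources used here. Each ChIP library has its own list. The deposited peak score and the deposited summit signal (fragment pileup height, whole numbers) were used as they stand. Depth per library is unknown, so heights were compared within the XPB list only, apart from values set side by side at single sites.

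Overlaps and distances were computed with pandas 2.3.3, numpy 2.4.6 and scipy 1.17.1 under Python 3.11.15, checked with bedtools 2.31.1 and tested on simulated intervals; plots used matplotlib 3.10.9. Members overlapped no XPD interval by 1 bp or more. Shares carry exact Clopper-Pearson 95% intervals and medians exact order-statistic intervals, for counting error only. With 1 library per antibody there is no test and no p-value. The members and comparisons were chosen with earlier results of these data known.

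Named peaks were the 10 highest scores, the 5 tallest, widest, lowest, most remote and closest to an XPD interval, runs of 3 or more within 50 kb, and the 3 on either side of the score threshold; others are said to be picked later. No reads, input list or hg19 annotation was used here.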

Additional observations from a re-analysis of the deposited data

How the results depend on the processing

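Of 45 alternative values, 27 stayed within the counting interval of the reported value, or within 1.5 times a count, and 18 moved. The width difference, which was inside its interval to begin with, changed sign in 3 settings, and no other difference did. The number of members, 826, was 1430 when no XPD summit was allowed within 250 bp in place of the overlap rule, 1932 at scores of at least 250, 177 at scores of at least 400 and 1313 against XPD peaks of at least 200 only. The median width of members minus that of overlapping peaks, -13.5 bp, was 162 bp with the rule on summits within 250 bp, 72 bp at scores of at least 400 and 45.7 bp within score ranges. The height difference of -3 fragments kept its direction in every setting and was -1.32 within score ranges. The difference in close XPB neighbours, -9.68 percentage points, was -5.57 at scores of at least 400 and -1.77 for neighbours within 50 kb. It was -15.0 when members within 1000 bp of an XPD interval were moved to the overlapping set, which builds in part of the change. The median distance to an XPD summit was 20541 bp without those near misses. Of the chromosomes set apart by their share, 9 lost this at scores of at least 250 and of at least 400, and 15 without the near misses. Chromosome 13 became set apart without the near misses, and chromosome 22 at scores of at least 400. No paired analysis was possible because each antibody has 1 library. With unknown depth, a site under a score of 150 in the XPD list cannot be told from one without XPD.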
